A study of Mus musculus with 9 samples.

Results

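Signaling through Stat3 drives much of the first stage of mammary gland involution, and 10 genes of that program were examined in lactating glands: Stat3, its receptor subunit Osmr, its targets Socs3, Cebpd, Igfbp5 and Pik3r1, and the later gene products Clu, Ctsb, Ctsl and Ctsd. All probes whose gene name in the array's design equaled one of these names were taken. The 10 names, of 27962 on the array, gave 18 probes of 41174, printed as 27 features on each array. Gland number 4 was taken on lactation day 2 (L2), after the 4th litter, from 4 WT dams and 5 hNAG-1 transgenic dams, with 1 array for each mouse. The strain background is labeled C57BL/7 for both genotypes, which may be a misspelling, since the study's text speaks of C57BL/6 females. No treatment is named, and the age is labeled only as lactation day 2. The hNAG-1 dams were made to express the human protein NAG-1, also named GDF15, in all tissues. The study's methods name 2 transgenic lines that were mixed in some experiments, and the labels do not say from which line the array mice came. Total RNA of the whole gland was extracted with TRIZOL, labeled with Cy3 and read on 1-color Agilent whole mouse genome arrays. The values are scaled intensities, meaning the background-subtracted brightness of a probe after every array was brought to the same 75th percentile.

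Stat3 is a transcription factor that lies latent in the cytoplasm until Jak kinases, bound to cytokine receptors of the gp130 family, phosphorylate it. In the mammary gland it is quiet during lactation and is switched on within hours of weaning, when milk stasis raises leukemia inhibitory factor and later oncostatin M. Active Stat3 then raises transcripts of the cytokine brake Socs3 and of Cebpd, and it is followed by Igfbp5, by regulatory subunits of PI3K that lower Akt signaling, and by lysosomal cathepsins that take part in epithelial cell death. Arrays measure transcripts, so they report nothing on whether Stat3 was phosphorylated.

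Milk protein transcripts marked the tissue as lactating gland, with 6 of 6 milk protein genes well above background on every array. Each array had 43379 features that were not controls, and between 59.8% and 76.1% of them were well above background. WT 1 was hybridized on slide 1 and hNAG-1 mice 1 to 4 on slide 2, while WT 2 to 4 shared slide 3 with hNAG-1 5. Slide 3 was the only slide with both genotypes, so a fit with slide as a block rests on its 4 arrays, and slide and genotype cannot be told apart for the other arrays. Nothing was pooled, each dam counts as 1 replicate, and precision is limited by having 9 arrays. Of the 18 probes, 17 were well above background on all 9 arrays, and no feature of the 10 genes was saturated.

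Between WT and hNAG-1 glands, no transcript of the 10 genes differed beyond the spread between mice after adjustment for the number of probes, and Socs3 and Igfbp5 had the lowest values in hNAG-1 relative to WT. An unadjusted p under 0.05 by limma was reached by 1 of 18 probes (5.56%), beside 5.62% of all probes. It was an Igfbp5 probe, lower in hNAG-1, a direction in which 4.42% of all probes passed, and 0 of 18 passed in the higher direction, beside 1.2% of all probes. After Benjamini-Hochberg adjustment over all probes in limma, 0 of 18 passed, the lowest adjusted p being 0.654, and over the whole array 0.00243% of probes did. Without hNAG-1 5 the share over the whole array was 0.522% (215 probes), and still 0 of 18 passed. In 0 of 18 probes did all hNAG-1 arrays lie on one side of all WT arrays, against 1.38% of all probes. Taking the probe with the highest mean for each gene, 6 genes were lower and 4 higher in hNAG-1, and with arrays scaled to their median 6 were higher and 4 lower. The median log2 fold change of the 10 genes (hNAG-1 minus WT) was -0.16, beside -0.01 over all probes. With median scaling, the genes' median by the brightest probes moved up to 0.05 and that of all probes of the array to 0.196. The spread differed widely within the set, from a WT coefficient of variation of 16.1% for Ctsl to 67.1% for Socs3 and 83.2% for Igfbp5.

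**Figure D1:**
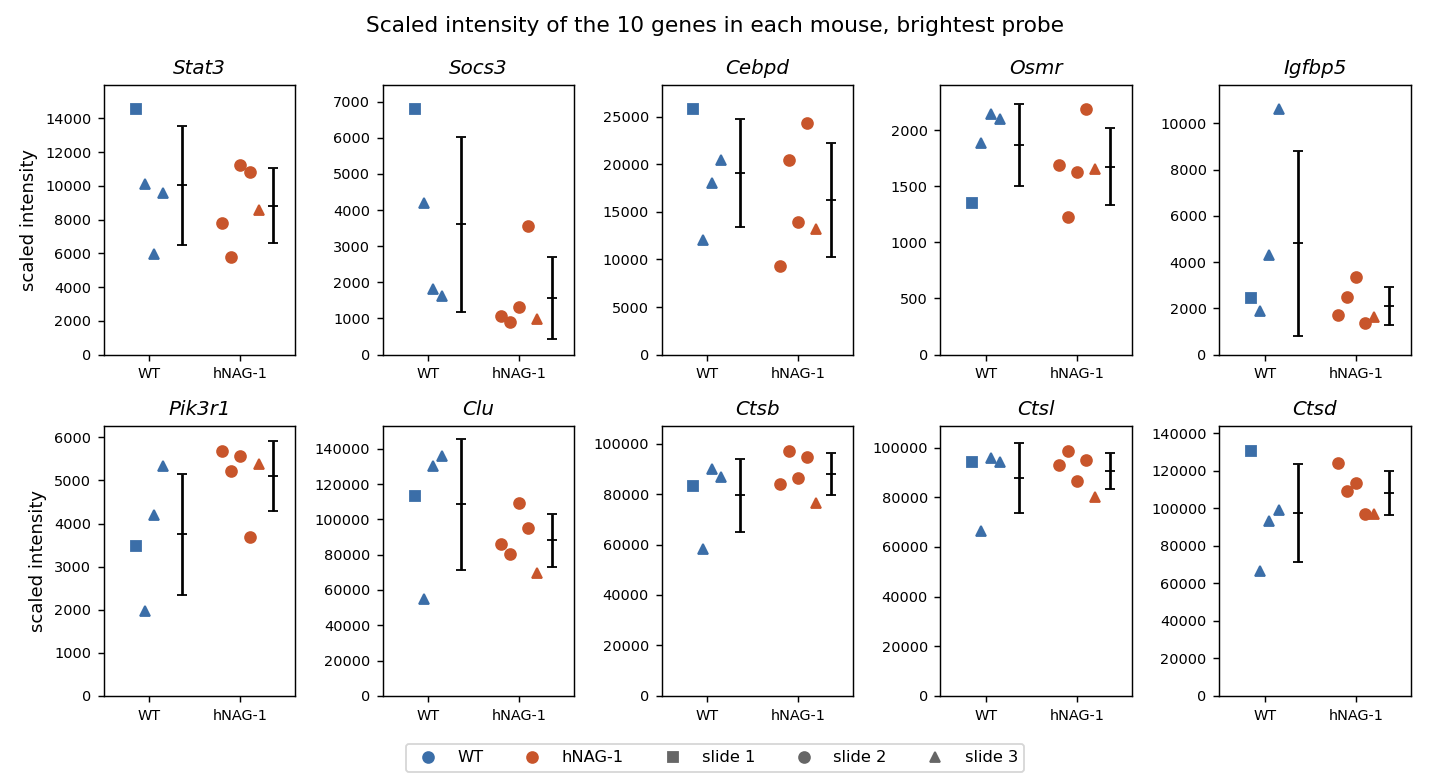
Scaled intensity (vertical axes, linear, from 0) of the brightest probe of each of the 10 genes in every mouse, WT in blue and hNAG-1 in orange, with the marker shape giving the slide; black bars are the mean ± SD of a genotype (n = 4 and n = 5). For Socs3, 4 hNAG-1 mice lie below all WT mice and 1 lies at 3564, and in all 10 genes the genotypes overlap.

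The first genes are Stat3 itself and Osmr, the receptor subunit through which oncostatin M reaches gp130 and Stat3. Stat3 had a pair of probes on chromosome 11, minus strand, of the mm7 build that the array's design uses, at chr11:100997323-100997382 and chr11:100994187-100994246. The first 30 bases of each, from the 5′ end, show which stretches of the transcript were read:
Stat3 A_51_P201480: cactctgtgagctgataccccaggctggga
Stat3 A_52_P569499: atccatcacacagcccagtaaaccaggaag
No gene annotation of that build was used here, so exon and intron are not given for any probe.

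The brighter Stat3 probe, A_51_P201480, read 14523, 10080, 5947 and 9544 in WT 1 to WT 4. Its hNAG-1 values were 7778, 5765, 11207, 10819 and 8585 in mice 1 to 5. WT 1 stood highest and the rest of the mice of both genotypes were interleaved, with a WT mean of 10023 ± 3517 (SD, n = 4) and an hNAG-1 mean of 8831 ± 2245 (SD, n = 5). On the log2 scale the fold change was -0.15 (95% interval -0.80 to 0.49, limma adjusted p = 0.864), and it was 0.06 with median scaling and 0.05 with slide as a block. This probe was printed as 10 features on each array. The coefficient of variation among those 10 was between 1.12% and 3.14% within an array, while that between mice was 35.1% in WT and 25.4% in hNAG-1. The spread of features on an array holds no labeling or hybridization error, so the 2 kinds of spread are not alike.

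The second Stat3 probe, A_52_P569499, was dim and read 54.3, 71.9, 56.2 and 66.6 in WT, and 35.4, 45.7, 67.0, 50.1 and 85.9 in hNAG-1. In hNAG-1, 3 values lay below every WT value and hNAG-1 5 lay above every WT value, which puts both ends of the range in the transgenic group. Its log2 fold change of -0.19 (95% interval -0.77 to 0.39) became 0.41 with slide as a block. Neither probe gave a stable sign for Stat3.

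For Osmr, the probe A_51_P319460 (chr15:6640433-6640492, minus strand) read 1352, 1884, 2140 and 2095 in WT and 1691, 1223, 1625, 2184 and 1650 in hNAG-1. The lowest and the highest value were both in hNAG-1, at mice 2 and 4. Its log2 fold change was -0.16 (95% interval -0.63 to 0.31, limma adjusted p = 0.798), and 0.05 with median scaling. A second Osmr probe, A_52_P495729, lay near the limit of the array, where the dimmest signal well above background was between 14.4 and 31.7. It was well above background in 3 of 4 WT arrays and in 0 of 5 hNAG-1 arrays, and read 18.1, 39.2, 34.1 and 33.2 in WT and 20.7, 31.8, 24.8, 40.1 and 27.2 in hNAG-1. The lowest value was that of WT 1 and the highest that of hNAG-1 4. No bound beyond the measured ratio could be set, and the log2 fold change was -0.09 (95% interval -0.70 to 0.52, limma adjusted p = 0.924), or 0.12 with median scaling.

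Socs3, the feedback inhibitor that binds gp130 and Jak kinases and shuts off Stat3, had the lowest log2 fold change of the 10 genes by the brightest probe. It had 1 probe, at chr11:118075211-118075270 on the minus strand of mm7. Its first 30 bases are given because this is the gene whose values parted most:
Socs3 A_51_P474459: ccttcgaggctgtctgaagatgcttgaaaa
In WT the scaled intensity was 6785, 4196, 1822 and 1626, and in hNAG-1 it was 1058, 902, 1316, 3564 and 976. All hNAG-1 mice but 1 lay below the WT mice, and that one, hNAG-1 4, lay within the WT range. The WT mean was 3607 ± 2419 (SD, n = 4) and the hNAG-1 mean 1563 ± 1129 (SD, n = 5), which gave a log2 fold change of -1.17 (standard error 0.53, 95% interval -2.37 to 0.02). This missed the threshold without adjustment (limma unadjusted p = 0.0534) and after it (limma adjusted p = 0.654), and the exact permutation test gave p = 0.111, two-sided. The interval runs from a drop of over 2 on the log2 scale to no change.

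Single mice carried much of the Socs3 value. Without hNAG-1 4 the log2 fold change was -1.53 (limma unadjusted p = 0.00892, adjusted p = 0.821), and without WT 1, the mouse with the most Socs3, it was -0.79 (limma unadjusted p = 0.16). In hNAG-1 4 the summed intensity of the 5 measured neutrophil markers was 80410, against 1315 to 2246 in the other hNAG-1 mice and 1752 to 5460 in WT, and its macrophage sum of 209899 was also the highest of all mice. That neutrophil sum was carried by S100a9 at 71219 and S100a8 at 9017, while Cxcr2, a neutrophil chemokine receptor, read 22.5, under all WT mice (117 to 240.0), and Elane was not well above background on any array. The part of either cell type in its Socs3 value was not tested. WT 1 had a neutrophil sum of 1752 and a macrophage sum of 61510, the lowest of the 9. Its lymphocyte sum of 5912 was, with 34297 in WT 2 and 5157 in hNAG-1 4, among the 3 highest of the 9 (945 to 2107 in the rest), and these 3 mice also had the most Socs3. The part of lymphocytes in that order was not tested either. Within slide 3, hNAG-1 5 read 976, below the 3 WT mice at 1626 to 4196, a log2 difference of -1.25 (95% interval -3.13 to 0.64 with slide as a block). The sign was the same under all alternatives tried, but the size was -0.67 with array weights (limma unadjusted p = 0.198). The unadjusted p by limma fell under 0.05 with normexp (0.0242), no scaling (0.0234), trend and robust estimation (0.0385) and the filter on dim probes (0.0483). It also did so without WT 3 (0.0373) and without WT 4 (0.0274). It stayed over 0.05 with median scaling (0.102, log2 fold change -0.96), quantile normalization (0.0549), a floor of 20 (0.0798) and without WT 2 (0.128). The probe-by-probe test of the methods gave an unadjusted p of 0.0904.

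Promoter windows of the 10 genes were searched for the core of a Stat site, and the match was in Socs3. RefSeq promoter windows of the GRCm38.p6 build, from 250 bases before to 50 after the start, were found for 7 of the 10 genes, with 8 windows. Cebpd, Clu and Ctsb were without one in the table. The general Stat core TTCNNNGAA, which reads the same on both strands, was in 1 of these 8 windows, against 8.3% of 32851 windows, and the stricter form TTCCNGGAA, every instance of which is also an instance of the first, was in 0 of 8 against 1.15%. The match in Socs3 began 154 bases and ended 146 bases before the start. Its surroundings, chr11:117969452-117969580 on the minus strand of GRCm38.p6, are shown with the match in capitals:
Socs3 promoter: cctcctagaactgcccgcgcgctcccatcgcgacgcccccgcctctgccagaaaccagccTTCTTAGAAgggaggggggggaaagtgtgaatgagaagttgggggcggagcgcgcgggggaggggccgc
A match describes the letters in this window and is no evidence of binding in these glands.

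Cebpd encodes C/EBPδ, a transcription factor that Stat3 raises early in involution. Its probe A_51_P444447 (chr16:15431723-15431782, plus strand) read 25766, 12078, 18083 and 20404 in WT and 9263, 20405, 13983, 24320 and 13232 in hNAG-1. WT 1 was again the highest mouse and hNAG-1 1 the lowest, and apart from hNAG-1 1 every transgenic mouse lay inside the WT range. Between genotypes the log2 fold change was -0.26 (95% interval -0.98 to 0.45, limma adjusted p = 0.781). Without WT 1 it was -0.10 and without WT 2 it was -0.47, so that the sign stayed while the size did not. In hNAG-1 4, whose Socs3 stood apart, Cebpd was also the highest of its genotype.

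Igfbp5 binds insulin-like growth factors and keeps them from their receptor, and in the gland it rises as epithelial cells begin to die. Its 2 probes lay 2537 bases apart on chromosome 1, minus strand, at chr1:73100116-73100175 and chr1:73102653-73102712. Their first 30 bases are shown because Igfbp5 held the one probe past the unadjusted threshold, and its partner read another stretch of the gene:
Igfbp5 A_52_P281702: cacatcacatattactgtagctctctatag
Igfbp5 A_51_P204153: aatagaattttccttggtgtctcccatcta
The brighter probe, A_52_P281702, read 2460, 1873, 4297 and 10605 in WT and 1716, 2491, 3350, 1354 and 1609 in hNAG-1. WT 4 lay far above all other mice, and in 3 hNAG-1 mice the value was lower than in any WT mouse. This gave a log2 fold change of -0.94 (95% interval -2.05 to 0.18, limma adjusted p = 0.654), with means of 4809 ± 4000 (SD, n = 4) and 2104 ± 816 (SD, n = 5).

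The dimmer Igfbp5 probe, A_51_P204153, read 200.2, 70.2, 124 and 298 in WT, and 115, 48.3, 79.2, 49.0 and 80.4 in hNAG-1. WT 4 was the highest and 2 hNAG-1 mice lay below every WT mouse. Its log2 fold change was -1.10 (standard error 0.43, 95% interval -2.07 to -0.13). This was the probe with a limma unadjusted p under 0.05, at p = 0.0303, while its adjusted p was 0.654 and the exact permutation test gave p = 0.0714, two-sided. That unadjusted p was 0.0812 with normexp background correction, where the fold change was -0.55, 0.07 with quantile normalization and 0.0571 with median scaling by limma. Both probes had the same sign, and they shared WT 4 as their highest mouse. Without WT 4 the fold changes were -0.44 and -0.77, and without WT 2, the WT mouse with the least Igfbp5, they were -1.28 and -1.47 (limma unadjusted p = 0.0299 and unadjusted p = 0.00443, adjusted p = 0.892 for both). Within slide 3, hNAG-1 5 read 1609 with the brighter probe, below the 3 WT mice at 1873 to 10605, while with the dimmer probe it read 80.4, inside their range of 70.2 to 298.

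Pik3r1 encodes the p85α, p55α and p50α regulatory subunits of PI3K, the last 2 of which are induced by Stat3 in the involuting gland. It had 4 probes on chromosome 13, minus strand. The probes with the highest and the lowest log2 fold change are shown in full, of which A_52_P307938 spans 1043 bases of mm7 with its 60 bases, so it joins separate genomic stretches:
Pik3r1 A_52_P407239: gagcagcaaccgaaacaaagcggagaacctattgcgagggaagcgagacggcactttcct
Pik3r1 A_52_P307938: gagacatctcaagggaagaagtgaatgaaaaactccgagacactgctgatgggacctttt
The first, at chr13:98794799-98794858, was the brightest and read 3486, 1972, 4209 and 5335 in WT and 5691, 5214, 5566, 3694 and 5386 in hNAG-1. In 3 hNAG-1 mice the value exceeded that of all WT mice, and hNAG-1 4 lay well below the other transgenic mice. The log2 fold change was 0.52 (95% interval -0.12 to 1.15, limma adjusted p = 0.654), and it was 0.24 without WT 2, the lowest mouse. Without WT 4 it was 0.72 (limma unadjusted p = 0.031, adjusted p = 0.695).

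The other Pik3r1 probes gave smaller values. A_51_P511236, at chr13:98792997-98793056, read 1824, 1363, 1846 and 2238 in WT and 2006, 2290, 3497, 1918 and 2209 in hNAG-1, which differ by 0.38 on the log2 scale (95% interval -0.12 to 0.87). Here hNAG-1 3 was the mouse far above the others. A_52_P235476, at chr13:98790149-98790208, read 1645, 1154, 1858 and 1441 in WT and 2230, 2300, 2185, 1850 and 1257 in hNAG-1, and its 0.35 turned to -0.21 with slide as a block. Of its hNAG-1 values 3 lay above every WT value, and hNAG-1 5, on the slide that both genotypes shared, lay below 3 of the 4 WT values. A_52_P307938, at chr13:98797997-98799039, read 833, 386, 588 and 659 in WT and 876, 422, 712, 519 and 584 in hNAG-1, with a log2 fold change of 0.02 (95% interval -0.60 to 0.64). The first and the last of these probes differed by 0.50 on the log2 scale, and that difference was not tested.

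Clu encodes clusterin, a secreted chaperone that rises in regressing epithelium. Its probe A_51_P367720 (chr14:60841778-60841837, plus strand) was the 220th brightest of all 41174 probes and read 113216, 54967, 130221 and 135780 in WT. In hNAG-1 it read 86103, 80197, 109197, 95149 and 69619. WT 1, WT 3 and WT 4 stood above all transgenic mice while WT 2 stood below all of them. The log2 fold change was -0.23 (95% interval -0.86 to 0.39, limma adjusted p = 0.778), and -0.02 with median scaling. Without WT 2 it was -0.53 (limma unadjusted p = 0.0169, adjusted p = 0.892), without WT 3 it was -0.12 and without WT 4 it was -0.10.

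The cathepsins Ctsb, Ctsl and Ctsd are proteases of the lysosome, and in involution they leak from it into the cytosol. By their brightest probes they were among the 260 brightest probes of the array, and in hNAG-1 mice they had the 3 lowest coefficients of variation of the 10 genes, 8.12% to 10.6%. Ctsb (A_51_P465148, chr14:58006948-58007007, plus strand) read 83100, 58230, 89943 and 86763 in WT and 84029, 97223, 86573, 94707 and 76586 in hNAG-1. WT 2 was the lowest of the 9 mice and hNAG-1 2 the highest. The log2 fold change was 0.16 (95% interval -0.22 to 0.54), or 0.02 without WT 2, and the second probe, A_52_P433889, gave 0.23 (95% interval -0.09 to 0.56) with values of 275 to 359 in WT and 328 to 417 in hNAG-1.

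Ctsl (A_51_P253547, chr13:62192273-62192332, minus strand) read 94096, 66567, 95985 and 94195 in WT. Its hNAG-1 values were 92870, 98729, 86449, 94876 and 80113. Most WT mice read close to each other and WT 2 lay far below them, the one gene where WT 2 stood apart by Dixon's criterion. The log2 fold change was 0.06 (95% interval -0.30 to 0.41), the narrowest of the brightest probes in the fit of all 9 arrays. With median scaling it was 0.27 (standard error 0.22). With slide as a block the value was -0.08 and the interval was wider, from -0.74 to 0.59.

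Ctsd had a bright probe, A_51_P384629 (chr7:138803337-138803396, minus strand), and a second one that joins separate genomic stretches over 154 bases of mm7, from 138804003 to 138804156 of chromosome 7:
Ctsd A_52_P35960: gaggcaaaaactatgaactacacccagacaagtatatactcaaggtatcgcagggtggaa
The bright probe read 130773, 66634, 93446 and 99151 in WT and 123958, 109427, 113621, 97152 and 96882 in hNAG-1. All hNAG-1 mice lay inside the WT range, whose ends were WT 1 and WT 2. Its log2 fold change was 0.18 (95% interval -0.27 to 0.64, limma adjusted p = 0.756) and fell to 0.02 without WT 2. The second probe read 18627, 14757, 16723 and 18601 in WT and 17923, 24400, 22703, 18050 and 20266 in hNAG-1. Of the hNAG-1 values 3 lay above every WT value, and the log2 fold change was 0.26 (95% interval -0.09 to 0.61, exact permutation test p = 0.0794, two-sided).

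**Figure D2:**
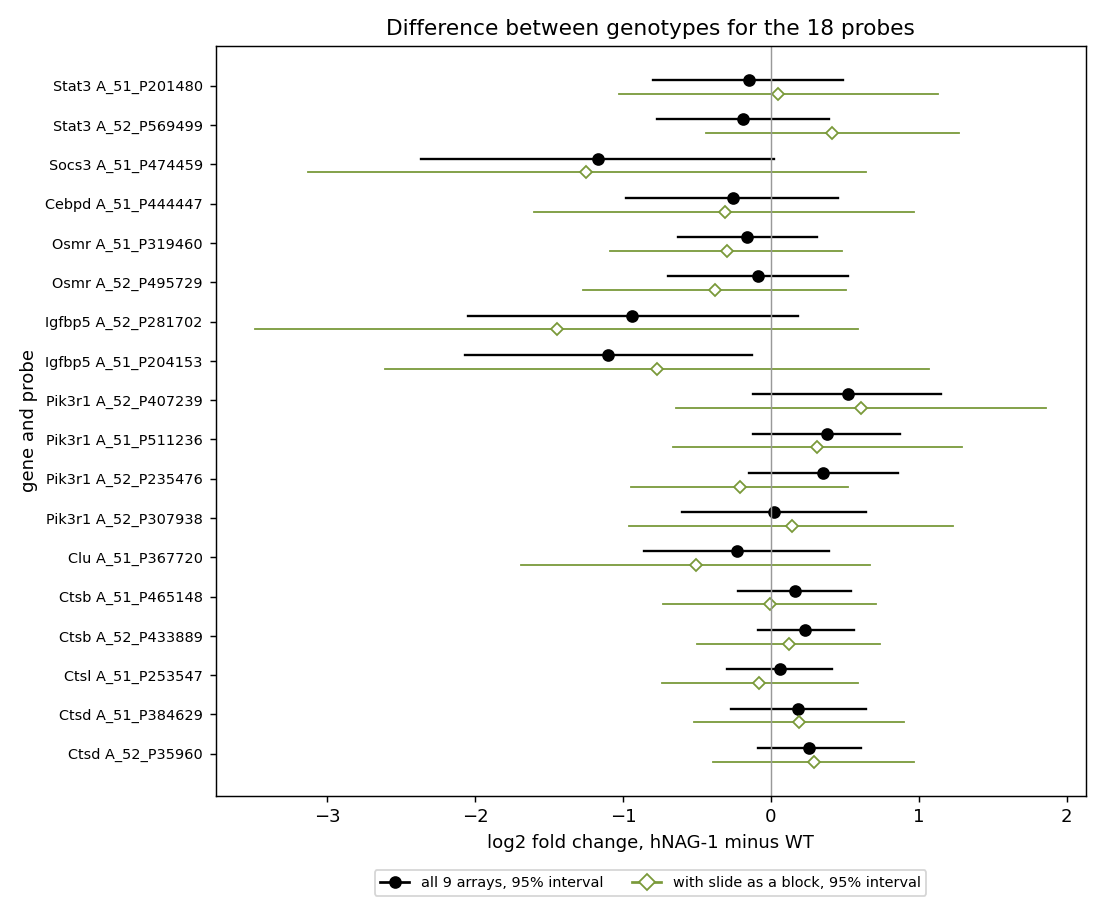
Log2 fold change (horizontal axis, hNAG-1 minus WT) of the 18 probes of the 10 genes, with black points for all 9 arrays and green diamonds for the fit with slide as a block; bars are 95% intervals. The black bar of the Igfbp5 probe A_51_P204153, from -2.07 to -0.13, is the one that leaves out 0, and all green bars cross 0.

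Certain mice moved many of the 10 genes together. By the brightest probe of each gene, WT 2 was the lowest of the 9 mice for Pik3r1, Clu, Ctsb, Ctsl and Ctsd. The median deviation of the 10 genes from their means over all arrays was -0.48 on the log2 scale in WT 2. In the other mice it was -0.13 to 0.18. WT 1 was the highest mouse for Stat3, Socs3, Cebpd and Ctsd. Among the transgenic mice, hNAG-1 2 was the lowest of all for Stat3, Socs3 and Osmr and the highest for Ctsb and Ctsl. By the brightest probes, Stat3, its receptor and its brake were thus lowest in the mouse where Ctsb and Ctsl were highest. The second probes of Stat3, Ctsb and Ctsd had other ends. That of Stat3 was lowest in hNAG-1 1 (35.4) and highest in hNAG-1 5 (85.9). That of Ctsb was lowest in WT 1 (275) and highest in hNAG-1 3 (417). That of Ctsd was highest in hNAG-1 2 (24400) and, like the brightest, lowest in WT 2 (14757).

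**Figure D3:**
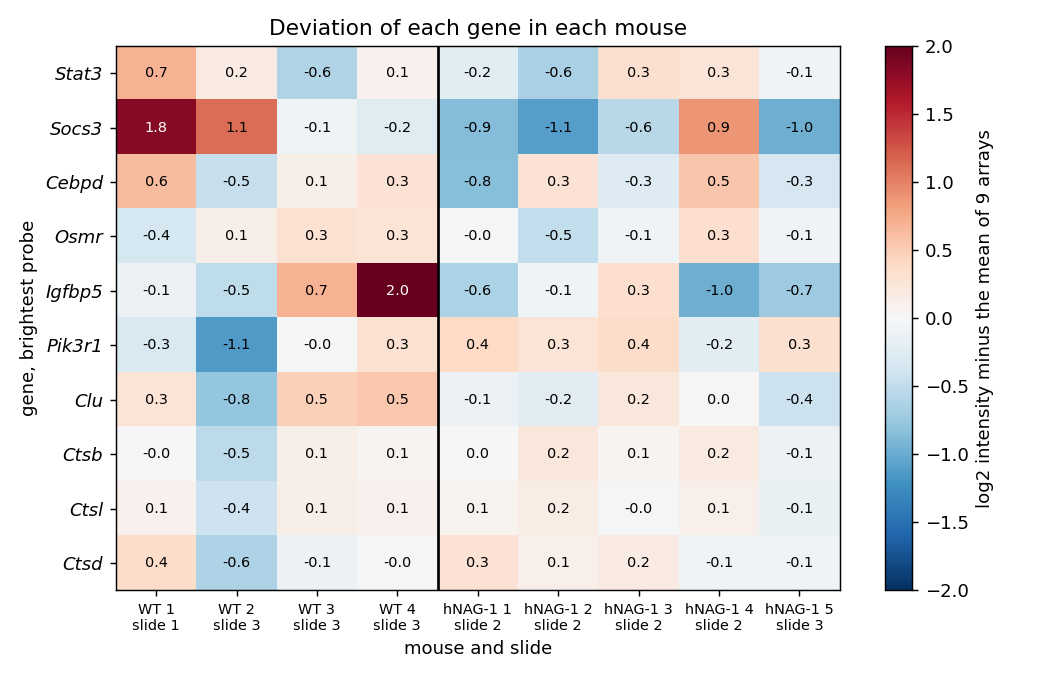
Log2 intensity of the brightest probe of each gene minus its mean over the 9 arrays (color scale, log2 units), by mouse and slide; the black line parts WT from hNAG-1. The column of WT 2 holds the lowest values of Pik3r1, Clu, Ctsb, Ctsl and Ctsd, and Socs3 and Igfbp5 are the rows with the widest range.

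Markers of other cells differed between mice in the same columns. In WT 2 the sum of 8 lymphocyte markers was 34297, against 1353 to 5912 in the other WT mice and 945 to 5157 in hNAG-1, while its sums of 6 milk protein genes (1330608), 7 luminal markers (156271) and 5 myoepithelial markers (57248) were the lowest of all mice. All 8 lymphocyte markers had a log2 fold change below 0, with a median of -1.26 (-1.05 with median scaling, -0.88 in the slide block). Of these, 1 passed an unadjusted p of 0.05 by limma, beside 4.42% of all probes in that direction. It was Cd2, a T cell surface protein, at -1.50 (limma unadjusted p = 0.0489, adjusted p = 0.654), and at -0.93 with slide as a block. Cd2 read 993 in WT 2 and 106 to 172 in the other WT mice. No defining marker of these lists was at 0, Elane was not well above background on any array, and Ly6g was not matched to a probe. In a whole gland, fewer cells of a type and less RNA per cell cannot be told apart, and the part of these cell types in the values of the 10 genes was not tested. Adipocyte markers were 7 of 7 above 0, with a median log2 fold change of 0.45 (0.66 with median scaling, 0.14 in the slide block) and sums of 409497 to 742995 in WT and 554901 to 695020 in hNAG-1, and 0 of 7 passed an unadjusted p of 0.05 by limma, beside 5.62% of all probes. Myoepithelial markers were 5 of 5 above 0, with a median of 0.35 (0.56 with median scaling, 0.21 in the slide block) and sums of 57248 to 126573 in WT and 102457 to 138210 in hNAG-1, and Myh11, smooth muscle myosin, was at 0.48 (limma unadjusted p = 0.0147, adjusted p = 0.654), and at 0.28 with slide as a block (limma unadjusted p = 0.363). The macrophage sums were 61510 to 151045 in WT and 62772 to 209899 in hNAG-1. Of the other lists, milk protein genes were 6 of 6 above 0, luminal markers 7 of 7 and fibroblast markers 5 of 6. Neutrophil markers were 3 of 5 above 0 and macrophage markers 2 of 7.

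**Figure D4:**
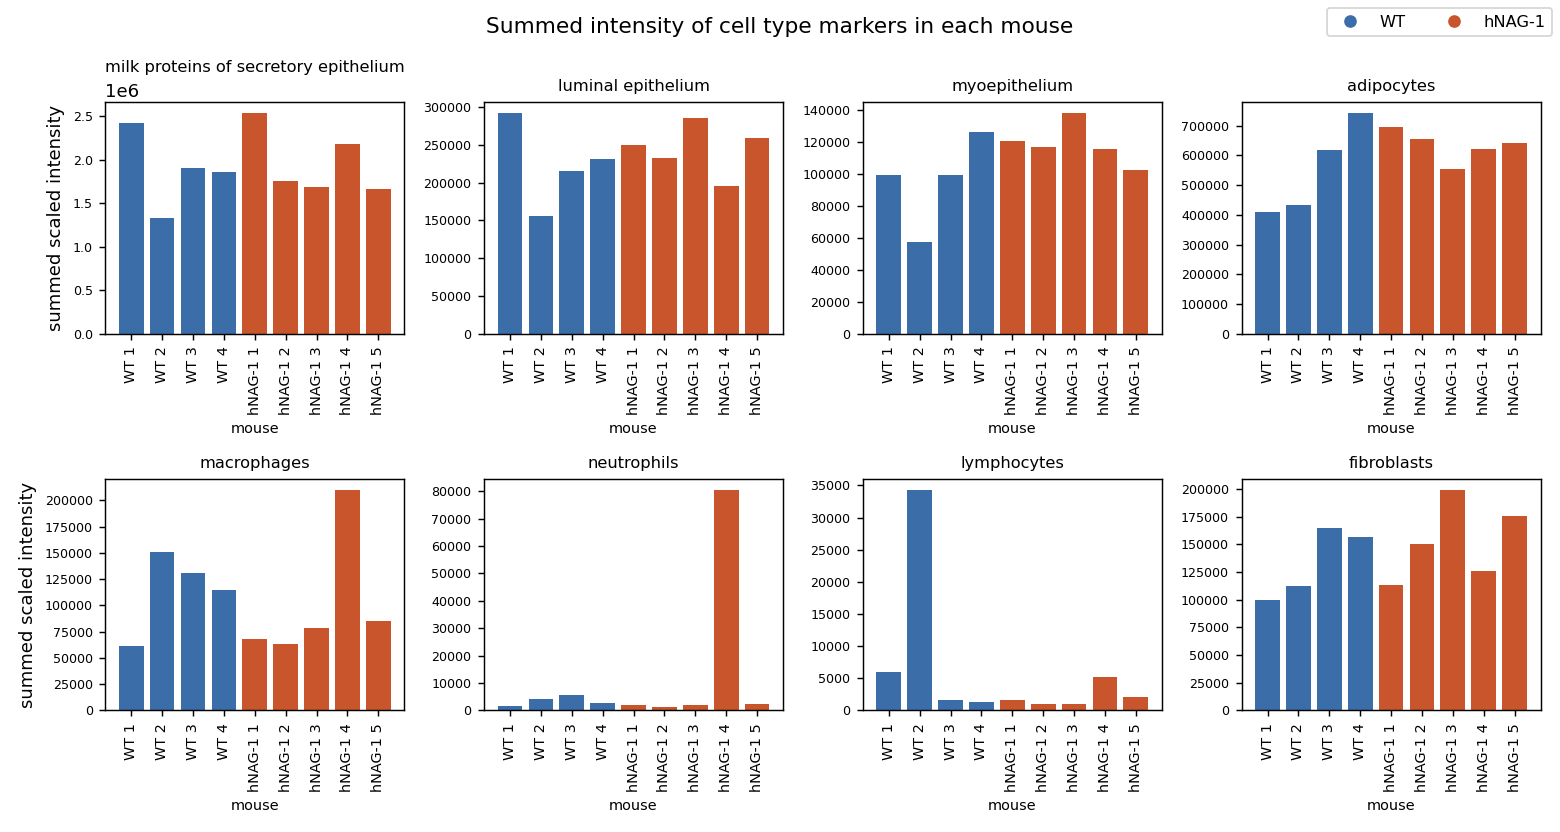
Summed scaled intensity (vertical axes, linear, from 0) of the markers of 8 cell types in every mouse, WT in blue and hNAG-1 in orange. WT 2 stands out for lymphocyte markers at 34297 and hNAG-1 4 for neutrophil markers at 80410, a sum that is mostly S100a9 (71219), with Cxcr2 at 22.5.

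On slide 3, where 3 WT mice and hNAG-1 5 were read together, the brightest probes of Socs3, Osmr and Igfbp5 lay below all 3 WT mice, that of Pik3r1 lay above them (5386 against at most 5335), and those of the other 6 genes lay within their range. The other 3 Pik3r1 probes and the dimmer probes of Igfbp5 and Ctsb also lay within it. The dimmer probes of Ctsd (20266 against at most 18601) and Stat3 (85.9 against at most 71.9) lay above the 3 WT mice. The dimmer Osmr probe has no place in this order, since 0 of 5 hNAG-1 arrays read it well above background. With slide as a block, 7 of the 10 genes kept the direction of their brightest probe, the exceptions being Stat3, Ctsb and Ctsl. The median log2 fold change of the 10 genes was then -0.19 beside 0.186 for all probes. In that limma fit 0 of 18 probes had an unadjusted p under 0.05, beside 7.58% of all probes, 6.87% being higher in hNAG-1, and 0 of 18 passed after adjustment, beside 0.333% of all probes. Slide 3 alone gave 0 of 18, beside 8.99% of all probes, but its hNAG-1 arm is 1 array that is assumed to vary like the 3 WT arrays, so this count says little.

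The pathway around Stat3 was read from lists of other genes, each by its brightest probe. Upstream, 12 of 13 gp130 cytokines, receptors and Jak kinases were matched to a probe, with a median log2 fold change of -0.05, and Lif was not matched. Of these, 1 passed an unadjusted p of 0.05 higher and 1 lower by limma, beside 1.2% and 4.42% of all probes. Il6ra, the interleukin 6 receptor, read 255 to 369 in WT and 366 to 440.2 in hNAG-1. All but 1 of its hNAG-1 mice exceeded the WT range. Its log2 fold change was 0.38 (limma unadjusted p = 0.0338, adjusted p = 0.654), and 0.28 with slide as a block. Clcf1, a cytokine that signals through gp130, was at -0.55 (limma unadjusted p = 0.0465, adjusted p = 0.654), and at -0.22 with slide as a block. Its hNAG-1 mice 1 to 4, all on slide 2, read 61.8 to 75.6, under the WT range of 79.3 to 164. On slide 3, hNAG-1 5 read 95.4, inside that range. Osm, which encodes oncostatin M, the ligand of Osmr, read 50.1 to 86.4 in WT, where all 4 arrays were well above background, and 21.1 to 65.8 in hNAG-1, where 3 of 5 were. Its log2 fold change of -0.77, which was 0.09 with slide as a block, therefore rests in part on values not well above background.

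Among 11 other brakes on Jak and Stat signaling, 0 passed an unadjusted p of 0.05 by limma, beside 5.62% of all probes, and the median was 0.01, or 0.22 with median scaling. The lowest was Socs1, which like Socs3 inhibits Jak kinases, at -0.50, with 1123 in WT 2 against 196 to 310 in the other WT mice and 551 in hNAG-1 4 against 180 to 238 in the other transgenic mice. The highest was Pias4, an inhibitor of activated Stat proteins, at 0.29. Among 9 genes of the other Stat proteins and the prolactin pathway, which holds up lactation, the median was 0.03, or 0.24 with median scaling and -0.32 in the slide block. Stat4, the Stat of interleukin 12 signaling in lymphocytes, was the one with an unadjusted p under 0.05, in the direction in which 4.42% of all probes passed (log2 fold change -1.56, limma unadjusted p = 0.0499, adjusted p = 0.654), and -0.62 with slide as a block. It was well above background on 4 of 4 WT but 4 of 5 hNAG-1 arrays, so the size of this value is not exact. It read 705 in WT 2, the mouse with the most lymphocyte marker signal, and 80.5 to 170 in the other WT mice.

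Of 21 other acute phase and early involution genes, 2 were higher and 0 lower in hNAG-1 at an unadjusted p of 0.05 by limma, beside 1.2% and 4.42% of all probes, and the median log2 fold change was 0.19, or -0.23 with slide as a block. Lbp, the lipopolysaccharide-binding protein of the acute phase, read 15502 to 19403 in WT and 16976 to 31111 in hNAG-1, and all but 1 of its hNAG-1 mice lay over the WT range (log2 fold change 0.47, limma unadjusted p = 0.0338, adjusted p = 0.654). Zfp36, which destabilizes cytokine mRNAs, was at 0.64 (limma unadjusted p = 0.0205, adjusted p = 0.654), and at 0.01 with slide as a block. Hp, which encodes haptoglobin, had the highest value at 0.79 (limma unadjusted p = 0.183), and was at 0.62 with slide as a block. Myc had the lowest at -0.29, and was at -0.85 with slide as a block. In this list 14 genes were above 0 and 7 below, and 2 of its genes, S100a8 and S100a9, are also on the neutrophil list that stood out in hNAG-1 4.

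The families of the downstream genes came next. Of 6 other insulin-like growth factor binding proteins, 0 passed an unadjusted p of 0.05 by limma, beside 5.62% of all probes. The median was 0.03, or 0.24 with median scaling, and the ends of the list were Igfbp3 at -0.38 and Igfbp2 at 0.18. Of 12 other PI3K and Akt genes, 11 were matched (Irs2 was not) and 0 passed, beside the same 5.62%. The median was 0.00, or 0.21 with median scaling. The lowest was Pik3cd, the leukocyte catalytic subunit, at -1.01. The highest was Akt1 at 0.43, which was -0.03 with slide as a block. Pik3cd read 3676 in WT 2 and 425 to 596 in the other WT mice. Of 23 other lysosomal proteases, inhibitors and lysosome genes, 0 were higher and 1 lower at an unadjusted p of 0.05, beside 1.2% and 4.42% of all probes, with a median of 0.07, or 0.28 with median scaling and -0.14 in the slide block. That one was Ctse, an aspartic protease of the endosome, at -0.56 (limma unadjusted p = 0.0207, adjusted p = 0.654), and at -0.24 with slide as a block. Its hNAG-1 mice 1 to 4, all on slide 2, read 66.3 to 98.8, under the WT range of 102 to 147. On slide 3, hNAG-1 5 read 116, inside that range. Ctsw, the cathepsin of cytotoxic lymphocytes, was the lowest at -0.62 and read 1665 in WT 2 against 379 to 517 in the other WT mice.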

How the data were processed

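RNA of mammary gland number 4 from 4 WT and 5 hNAG-1 dams on L2 was measured, 1 array per mouse. The authors deposited scanner output of Agilent Feature Extraction (version 9.5 per the labels) as intensity per feature, background-subtracted and not scaled between arrays. The deposited series table held the same values. Controls were left out and features of a probe averaged (41174 probes), and arrays were brought to a common 75th percentile, then to log2. Genotypes were compared by limma version 3.58.1 (lmFit, eBayes, two-sided, no covariates) in R version 4.3.3, with Benjamini-Hochberg adjustment over all probes, and by exact permutation over all 126 splits (smallest p 0.00794). The authors' own test compared genotypes probe by probe, and was run here without moderation, which the sources do not state, as an alternative named the methods' test. P-values measure the spread between these mice only.

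The 10 genes, the pathway lists and the marker lists were chosen with earlier results of these data known. Named list genes are those with an unadjusted p under 0.05 and the highest and lowest of each list among probes well above background on all arrays of a genotype. Values of some genes under this rule are not reported here. Genes are named as in the array's design. RefSeq (GRCm38.p6) held the accessions of 14 of the 18 probes and 22951 of 41174 in all, with no conflict for the 10 genes. Sequences come from the scanner files (mm7) and RefSeq (GRCm38.p6). Probes are printed whole where they join separate genomic stretches or hold no stop codon in any of 3 frames, otherwise by their first 30 bases. The scripts were tested on simulated data. Alternatives covered background correction (normexp, offset 50), scaling, a floor of 20, outlier flags, a filter on dim probes, the variance model, array weights, the slide, a replicate block and each mouse left out. Slide as a block with median scaling, and the arrays of slides 1 and 3 alone, were added after the values were seen.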

Additional observations from a re-analysis of the deposited data

Results flagged for a closer look

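In 4 of 36 groups of mice (18 probes by 2 genotypes), 1 mouse lay apart from the rest of its genotype by Dixon's criterion at the 95% level, and chance alone gives about 1 in 20 such groups, or 1.8 of 36. Socs3 read 3564 in hNAG-1 4 against 902 to 1316 in the other hNAG-1 mice. The Pik3r1 probe A_52_P407239 read 3694 in the same mouse against 5214 to 5691. The Pik3r1 probe A_51_P511236 read 3497 in hNAG-1 3 against 1918 to 2290. Ctsl read 66567 in WT 2 against 94096 to 95985 in the other WT mice.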

How the results depend on the processing

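The count of probes with an adjusted p under 0.05 was 0 under all alternatives. The count with an unadjusted p under 0.05 was 1 of 18 in the values above. It was 2 with normexp (beside 2.58% of all probes), no scaling (5.02%), eBayes with trend and robust estimation (5.66%) or array weights (15.2%). The filter on dim probes left 17 probes and also gave 2 (7.23%). The count was 0 with the methods' test (4.87%), slide as a fixed block (7.58%) or that block with median scaling (6.82%). Slide 3 alone and the arrays of slides 1 and 3 hold 1 hNAG-1 array, so counts from them are not read here. With 1 mouse left out, the count ranged from 0 (without WT 1 or hNAG-1 2) to 3 (without WT 2). In these fits 4.98%, 2.82% and 4.31% of all probes passed. With quantile normalization and with median scaling the count was 1, beside 6.36% and 8.76% of all probes. The probe was then another, Ctsb A_52_P433889 and Pik3r1 A_52_P407239, both higher in hNAG-1. With normexp the probes were Socs3 and the brighter Igfbp5 probe. The number of genes higher in hNAG-1, 4 above, was 6 with median scaling, 2 in both added alternatives, and 3 to 5 with 1 mouse left out. The median of the 10 genes ranged from -0.25 to -0.03 with 1 mouse left out, and was -0.31 with no scaling. Replicate numbers did not pair the mice (correlation of deviations 0.279, -0.199, -0.142 and -0.307 for numbers 1 to 4), and mouse 1 alone had its own number as best partner. The replicate block, which drops hNAG-1 5, gave a median of -0.15 and 5407 probes with an unadjusted p under 0.05 over the whole array, against 5909 in the same 8 arrays without the block.

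Socs3, Cebpd, Clu, both Igfbp5 probes, both Ctsd probes and the Pik3r1 probes A_52_P407239 and A_51_P511236 had one direction under all alternatives run, Clu ranging from -0.53 to -0.10 with 1 mouse left out. The others turned, and the cause was not tested. Stat3 A_51_P201480 was 0.06 with median scaling, 0.04 with array weights and 0.05 with slide as a block, on slide 3 alone and without WT 1 (-0.38 to 0.05 with 1 mouse left out). Stat3 A_52_P569499 was 0.02 with normexp or median scaling, 0.08 with quantile normalization, 0.41 with slide as a block or slide 3 alone, 0.29 with the block and median scaling and 0.48 on slides 1 and 3. Osmr A_51_P319460 was 0.05 with median scaling. Osmr A_52_P495729 was 0.17 with normexp, 0.23 with quantile normalization, 0.12 with median scaling and -0.33 to 0.04 with 1 mouse left out. Pik3r1 A_52_P307938 was -0.13 with no scaling, -0.02 with the percentile over bright probes or on slides 1 and 3, -0.07 with array weights and -0.19 to 0.18 with 1 mouse left out. Pik3r1 A_52_P235476 was -0.21 with slide as a block or slide 3 alone, -0.34 with the block and median scaling and -0.26 on slides 1 and 3. Ctsb A_51_P465148 was -0.01, -0.13 and -0.03 in these settings and 0.02 to 0.22 with 1 mouse left out, and Ctsb A_52_P433889 -0.01 with the block and median scaling. Ctsl was -0.09 with no scaling, -0.02 with array weights, -0.08 with slide as a block or slide 3 alone, -0.20 with the block and median scaling, -0.11 on slides 1 and 3 and -0.07 to 0.11 with 1 mouse left out.

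Over the whole array the count at an unadjusted p under 0.05 was 1061 with normexp, 3608 with median scaling, 6264 with array weights and 5909 without hNAG-1 5. The share of it higher in hNAG-1 was 21.4%, but 54.2% with normexp, 70.7% with median scaling, 2.86% with no scaling and 90.6% with slide as a block.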
